A study of Drosophila melanogaster with 12 samples.

Results

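Accessory glands of adult Drosophila melanogaster males that overexpressed Myc together with E2f1 and its partner Dp (Myc+E2f/Dp glands) were compared with glands of the GFP+P35 control genotype, gene by gene, in bulk RNA-seq. The comparison was set by the labels alone: 3 Myc+E2f/Dp libraries against 3 control libraries, 6 of the 12 libraries of the series, over all 14323 genes of the deposited table, of which 8128 were abundant enough to test. Every library in the series came from flies that carried a heat-shock flippase (hs-flp12), UAS-P35, which encodes a viral blocker of caspases, an actin promoter separated from Gal4 by a removable CD2 cassette (Act>CD2>Gal4), and nuclear GFP under UAS. The controls carried nothing more, and the Myc+E2f/Dp flies also carried UAS-E2F1, UAS-Dp and UAS-dMyc. A heat shock of 20 min at 37°C in young adults removed the cassette in a share of cells, the virgin males were then kept at 25°C, and glands were taken at 10 days of age. Each library pooled 80 to 100 glands without ejaculatory duct or testis, and glands with little or no GFP had been discarded, so that every library mixed cells with and without the transgenes. The actin promoter is not particular to the gland epithelium, so that other cells of the gland and of the fly could also have carried the flipped-out Gal4. The remaining 6 libraries came from glands with activated Yki and Dp (Yki*+Dp) or with wild-type Yki (YkiWT). Levels or differences of these groups are given below for some genes and lists. All 12 libraries also entered the filter, the scaling and the fit. Standard errors and p-values of the control comparison thus drew on the spread within all 4 groups.

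The accessory gland makes most of the seminal fluid. Its epithelium is a single layer of binucleate, postmitotic main cells with a small number of secondary cells at the tip, wrapped in muscle, and both cell types devote much of their transcription to secreted proteins. E2f1 binds DNA as a dimer with Dp and switches on genes for S phase, and the retinoblastoma protein Rbf holds it in check until Cyclin E and Cdk2 inactivate Rbf. Myc, a basic helix-loop-helix factor that pairs with Max, is known for raising ribosome production and cell growth.

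Values are TPM, the length-corrected share that a gene takes of all transcripts of a library, summed over its transcripts and multiplied by a median-of-ratios factor for each library computed over 6633 reference genes. Levels below are these scaled TPM unless TPM as deposited is named. TPM is already corrected for transcript length but keeps no record of read depth, so that the depth of the libraries is unknown and no counting interval can be given. The factors were 1.13 to 1.36 in control and 0.645 to 0.776 in Myc+E2f/Dp libraries, and they matter: with TPM as deposited, the median log2 fold change of all tested genes was 0.74, against 0.05 after scaling and 0.15 when libraries were scaled by their 75th percentile. The 100 most abundant genes of control glands took 67.4 to 71.1% of all TPM in control libraries and 57.8 to 62.6% in Myc+E2f/Dp libraries. Between 6902 and 7257 genes reached 1 TPM as deposited in a control library and between 7615 and 8120 in a Myc+E2f/Dp library. Log2 values correlated across genes at 0.992 or more within each group and at 0.948 to 0.971 between the groups. Fold changes are log2 differences of scaled TPM + 1, which understates the change of genes with low values, and they are given ± the standard error. A gene was called higher or lower when limma gave a Benjamini-Hochberg adjusted p under 0.05 and the log2 fold change was at least 1 in size. The 3 libraries of a group are stated to be independent replicates, so that p-values measure the spread between pools of glands within groups, estimated over all 12 libraries.

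The driven genes were checked first. E2f1 (chromosome 3R, 21620304 to 21660871) stood at 22.6, 24 and 20.9 in the control libraries and at 777, 724 and 513 in the Myc+E2f/Dp libraries, a log2 fold change of 4.82 ± 0.14 (limma, adjusted p = 8.32e-10). Dp (chromosome 2R, 13222433 to 13228202) went from 25.9, 27.8 and 29.7 to 480, 737 and 935, a log2 fold change of 4.59 ± 0.20 (adjusted p = 1.37e-08). Myc (chromosome X, 3373159 to 3391697) was at 20.6, 24.5 and 26.2 in control and at 121, 80.8 and 150 in Myc+E2f/Dp libraries, a log2 fold change of 2.22 ± 0.18 (adjusted p = 1.52e-06). All 3 driven genes were therefore higher in every Myc+E2f/Dp library than in any control library, and the rise of Myc was the smallest of the 3. The transcript makeup of each gene shifted too. Transcript FBtr0334678 of E2f1 was listed at 0 TPM as deposited in all 3 control libraries and at 583, 555 and 411 in the Myc+E2f/Dp libraries, 55.0% of the gene. Transcript FBtr0333149 made up 12.9% of Dp in control and 64.6% in Myc+E2f/Dp glands, and transcript FBtr0070525 made up 57.5% and 90.1% of Myc.

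A further gene of the transgenic constructs of the series was higher than its label would give. The Myc+E2f/Dp genotype lists no yki transgene, yet yki (chromosome 2R, 24065975 to 24068485), the growth-promoting co-activator of the Hippo pathway, was at 94.4, 124 and 36.0 in the Myc+E2f/Dp libraries against 19.3, 18.7 and 18.6 in control, a log2 fold change of 1.94 ± 0.40 (limma, adjusted p = 0.00141). In the Yki*+Dp libraries it was at 344, 400 and 376, and in the YkiWT libraries at 97.7, 81.6 and 195. The levels of replicates 1 and 2 of Myc+E2f/Dp thus fell within the range of the YkiWT libraries, and replicate 3 lay between them and control. Transcript FBtr0309372 was at 2.59, 2.25 and 2.92 TPM as deposited in control and at 83.6, 132 and 17.3 in the Myc+E2f/Dp libraries. Over each group it made up 17.1% of yki TPM in control, 65.9% in Myc+E2f/Dp, 91.8% in Yki*+Dp and 78.9% in YkiWT glands. In replicate 3 of Myc+E2f/Dp it did not hold most of the gene: FBtr0290258 and FBtr0452181 were each at 18.1 there, against 5.68 to 6.94 in control. Expanded (ex), a Hippo pathway component and Yki target, was not called higher: it was at 2.41, 2.62 and 2.61 in Myc+E2f/Dp libraries and at 3.21, 4.16 and 3.49 in control. The part of this yki signal in the other results was not tested. All results below come from the 3 libraries together, and the counts without each of them are given with the total.

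**Figure D1:**
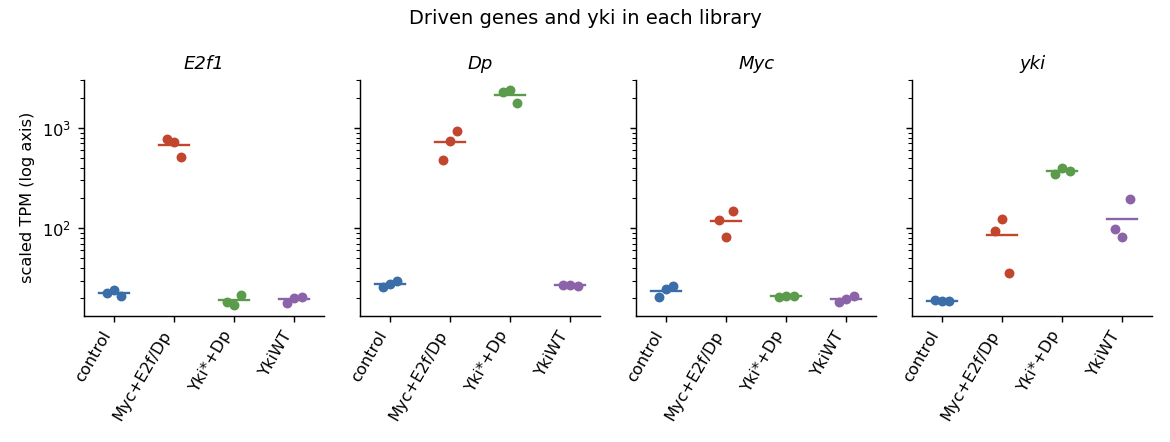
Scaled TPM on a log axis of E2f1, Dp, Myc and yki in each of the 12 libraries, with 1 point per library and a bar at the mean of each group of 3. E2f1 and Myc are high in the Myc+E2f/Dp libraries only, Dp is high in Myc+E2f/Dp and Yki*+Dp libraries, and yki is also above control in the Myc+E2f/Dp libraries, at 36.0 to 124.

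Of 8128 tested genes, 1064 were called (13.1%), 581 higher (7.15%) and 483 lower (5.94%) in Myc+E2f/Dp than in control glands. The typical called gene changed by a log2 value of 1.42 upward or -1.31 downward, and 141 genes rose and 60 fell by a log2 value of 2 or more in size. Every one of the 581 higher genes had its 3 Myc+E2f/Dp libraries above all 3 control libraries, and 478 of the 483 lower genes had them below, while over all tested genes 39.8% lay wholly above and 31.3% wholly below. Among the genes called higher, 274 were under 1 TPM as deposited in every control library, and 200 entered the test only because of the Myc+E2f/Dp libraries. In all, 481 genes entered in that way and none of them was called lower, and the filter itself favours a rise in such genes. With TPM as deposited, the balance of directions changed to 2340 higher (28.8%) and 108 lower (1.33%). All 581 higher genes were then still called higher and 108 of the 483 lower genes still lower, and all 483 kept a negative fold change. Changes were larger in replicate 3 of Myc+E2f/Dp, where the median log2 fold change of the called higher genes was 1.69 against 1.3 and 1.38 in replicates 1 and 2. Leaving out replicate 1, 2 or 3 of Myc+E2f/Dp, with the tested genes kept, gave 657, 603 or 489 higher and 521, 489 or 395 lower genes.

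Direction went with abundance. Of 3987 tested genes with a mean of 1 to 10 scaled TPM over the 6 libraries, 408 rose and 150 fell. Of 485 genes at 100 to 1000, 13 rose and 113 fell, and of 161 genes at 1000 or more, none rose and 47 fell (29.2%). From unscaled TPM the same classes held 1411 higher and 42 lower, 56 higher and 15 lower, and 2 higher and 9 lower genes, so that lower calls outnumbered higher ones in the most abundant class alone.

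**Figure D2:**
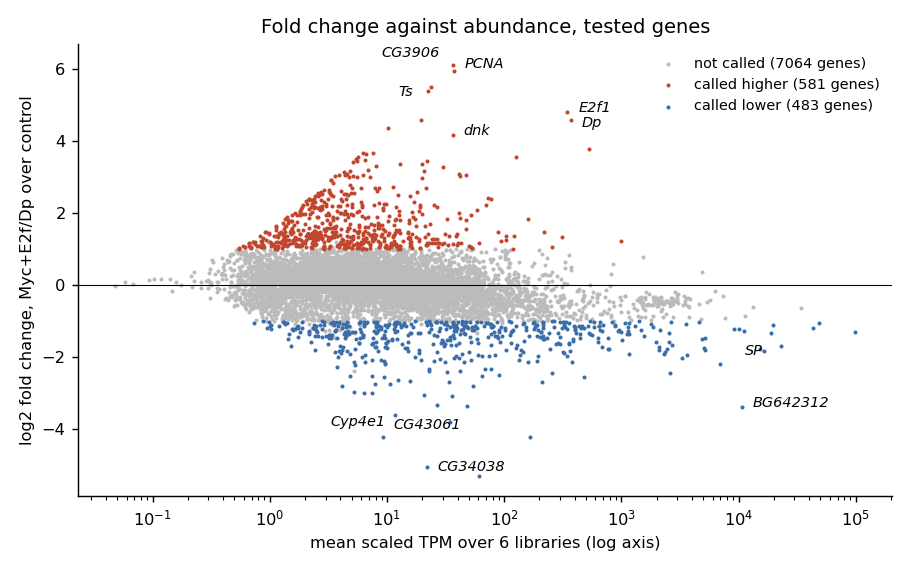
Log2 fold change of Myc+E2f/Dp over control (vertical axis) against the mean scaled TPM over the 6 libraries (horizontal, log axis) for 8128 tested genes, red for the 581 called higher, blue for the 483 called lower and grey for the rest. The called higher genes lie mostly under 100 scaled TPM, and of the 161 genes at 1000 or more those called were all lower.

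The largest rise of any gene was in CG3906 (chromosome 2R, 23511286 to 23512225), which has only an annotation number. It was at 0.0777, 0.0639 and 0.0249 in control and at 59.5, 71.4 and 89.7 in Myc+E2f/Dp libraries, a log2 fold change of 6.12 ± 0.14 (limma, adjusted p = 1.68e-10). CG14545, likewise unnamed, followed PCNA, with 0.0118, 0.0814 and 0.0660 in control and 39.5, 44.2 and 59.3 in Myc+E2f/Dp glands, for a log2 difference of 5.51 ± 0.14 (adjusted p = 4.17e-10). Ccp84Ad, a cuticle protein gene, went from 0.0677, 0 and 0.0455 to 15.1, 21.5 and 25.0. All 3 of these genes were near 0 in control glands, and the Yki*+Dp means were 0.322, 0.123 and 0.0409, so that each was also called higher against Yki*+Dp glands. The 12 largest rises further held 2 of the driven genes, 4 genes of DNA synthesis (PCNA, Ts, RnrL and dnk), the mitotic kinase gene aurB, Skp2 and Obp56g.

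Most of the listed DNA replication genes rose. Of 25 genes for licensing and for the replicative helicase, all tested, 19 were called higher and none lower, with a median log2 fold change of 1.68. Of 29 genes for the replication fork, 22 were called higher and none lower, with a median of 1.96. Over all tested genes the median was 0.05 and 7.15% were called higher. Of the called higher genes, 12 licensing and 10 fork genes entered the test only through the Myc+E2f/Dp libraries. Among the members that did not need those libraries, 7 of 13 licensing and 12 of 19 fork genes were called higher. Over all tested genes that did not need them, 381 of 7647 were. Summed over its members, the licensing list was at 74.0 to 78.1 scaled TPM in control and at 235 to 239 in Myc+E2f/Dp libraries, and the fork list at 110 to 117 and 433 to 447. Against Yki*+Dp glands, where 5% of tested genes were called higher, 19 of the licensing and 23 of the fork genes were called higher.

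The origin recognition complex marks the sites where replication starts. Its subunit gene Orc1 was at 1.78, 1.59 and 1.45 in control and at 10.9, 10.9 and 7.97 in Myc+E2f/Dp libraries, a log2 fold change of 2.05 ± 0.12 (limma, adjusted p = 1.68e-07). Orc2 was at 0, 0.0136 and 0.0355 in control and at 3.59, 4.33 and 4.37 in Myc+E2f/Dp. Double parked (dup), the fly Cdt1, loads the helicase onto the origin. It rose from 0.900, 1 and 0.985 to 7.88, 8.48 and 8, a log2 fold change of 2.22 ± 0.08 (adjusted p = 2.64e-09). Cdc6, the other loading factor, moved far less: 3.03, 3.02 and 2.72 in control against 4.78, 4.2 and 3.94, a log2 fold change of 0.43 ± 0.08 that was under the fold threshold. The 6 subunits of the Mcm2-7 helicase ring, named as a complex after their values were seen, were all called higher. Mcm5 changed most, from 0.0405, 0.0431 and 0.0847 to 10.4, 11.4 and 10.9 (log2 3.49 ± 0.07, adjusted p = 7.41e-11), and Mcm6, the most abundant of the ring in control glands, changed least, from 3.36, 3.39 and 3.53 to 14.0, 13.5 and 12.1 (log2 1.68 ± 0.06, adjusted p = 1.91e-09). Their means ran from 0.0561 in Mcm5 to 3.42 in Mcm6 in control glands and from 8.82 in Mcm3 to 13.5 in dpa, the fly Mcm4, in Myc+E2f/Dp glands, and no library of one group reached the other in any of them. Mcm10, which helps to start unwinding, rose from 0.0313, 0.0247 and 0.0657 to 7.05, 7.66 and 8.34.

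At the fork, PCNA (chromosome 2R, 20261754 to 20262883), the sliding clamp of the replicative polymerases and a classic E2f target, had the second largest rise of all genes. It was at 0.368, 0.0724 and 0.272 in control and at 69.7, 76.2 and 76.9 in Myc+E2f/Dp libraries, a log2 fold change of 5.93 ± 0.25 (limma, adjusted p = 1.11e-08). PolA1, the catalytic subunit of the polymerase that starts each strand, went from 0.133, 0.118 and 0.0842 to 4.81, 5.75 and 5.79 (log2 2.53 ± 0.10). Its primase partner Prim2 went from 0.291, 0.262 and 0.262 to 7.72, 9.02 and 10.7 (log2 2.99 ± 0.10). RPA2 and RPA3 encode subunits of the complex that coats single-stranded DNA. RPA2 rose from 0.685, 0.775 and 0.915 to 11.7, 13.4 and 15.5, and RPA3 from 6.04, 4.39 and 4.94 to 40.9, 36.8 and 36.7. Claspin, which carries the checkpoint signal at stalled forks, was at 0.0105 or less in every control library and at 5.92, 7.11 and 6.98 in Myc+E2f/Dp libraries. In none of these genes did the groups overlap, while 39.8% of all tested genes lay wholly above control.

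Among 19 genes of nucleotide supply, 18 were tested and 5 were called higher (27.8%, against 7.15% of all tested genes). Those 5 all make or guard DNA precursors, and 1 of them passed the filter only through the Myc+E2f/Dp libraries. Thymidylate synthase (Ts) rose from 0.167, 0.0263 and 0.0428 to 39.1, 45.3 and 48.6, a log2 fold change of 5.39 ± 0.11 (limma, adjusted p = 5.29e-11). RnrL, the large subunit of ribonucleotide reductase, rose from 0.591, 0.649 and 0.645 to 38.9, 37.4 and 38.3, a log2 fold change of 4.59 ± 0.08 (adjusted p = 1.66e-11). RnrS, its small subunit, was already at 9.79, 8.28 and 10.1 in control and reached 80.5, 89.4 and 88.2 (log2 3.07 ± 0.11). The ratio of RnrS to RnrL was thus larger in control than in Myc+E2f/Dp glands, although their difference in scaled TPM was smaller. The salvage kinase dnk had the smallest standard error of the 5: 3.01, 2.86 and 2.92 became 66.7, 71.1 and 71.4, a log2 fold change of 4.17 ± 0.05 (adjusted p = 1.33e-12). dUTPase, which keeps uracil out of DNA, rose from 22.5, 18.6 and 25.9 to 110, 122 and 139 (log2 2.43 ± 0.14). The remaining 13 tested genes of the list were not called, and the median of the whole list was 0.26.

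Among regulators of the G1/S transition, 3 of 13 tested genes were called higher (23.1%, against 7.15% of all tested genes). Of the 3, 2 passed the filter only through the Myc+E2f/Dp libraries, and 1 of the other 11 tested genes was called higher. Cyclin E (CycE), which with Cdk2 starts S phase, rose from 1.37, 1.5 and 1.16 to 9.75, 11.1 and 11.2, a log2 fold change of 2.32 ± 0.10 (limma, adjusted p = 1.62e-08). Cdk2 rose from 0.349, 0.375 and 0.470 to 5.72, 5.53 and 5.61 (log2 2.24 ± 0.09, adjusted p = 6.89e-09). The third, l(2)dtl, the fly Cdt2, directs the ubiquitin ligase that clears E2f1 and Dup in S phase, and it rose from 1.02, 1.13 and 0.955 to 6.36, 7.39 and 7.65 (log2 1.99 ± 0.09). Skp2, a subunit of another cell cycle ubiquitin ligase, was at 0.260, 0.280 and 0.202 in control and at 12.3, 15.1 and 17.1 in Myc+E2f/Dp glands, for a log2 difference of 3.66 ± 0.13 (adjusted p = 2.23e-09). Skp2 too passed the filter only through the Myc+E2f/Dp libraries. None of these 4 genes overlapped between the groups, while 39.8% of all tested genes lay wholly above control.

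The E2f and Rb family itself was touched, with 3 of 10 tested genes called higher (30%, against 7.15% of all tested genes). Of the 3, 1 passed the filter only through the Myc+E2f/Dp libraries. Rbf, the retinoblastoma protein that binds E2f1, rose from 4.73, 4.64 and 4.60 to 18.7, 20.7 and 22.7, a log2 fold change of 1.94 ± 0.08 (limma, adjusted p = 7.81e-09). Its relative Rbf2 rose from 0.749, 0.875 and 0.742 to 3.03, 4.03 and 3.59 (log2 1.34 ± 0.09), and Caf1-55, a histone-binding member of the dREAM repressor complex, from 10.2, 9.62 and 9.42 to 32.3, 33.8 and 31.5 (log2 1.64 ± 0.05). E2f2, the repressive E2f, stayed just under the fold threshold: 9.64, 9.57 and 9.19 in control and 18.5, 18.7 and 16.1 in Myc+E2f/Dp glands, for a log2 difference of 0.84 ± 0.08. In the Myc network, 1 of 8 tested genes was called (12.5%). That gene was rept, a helicase of the Tip60 complex, at 10.0, 9.43 and 9.73 in control and 22.6, 20.6 and 22.9 in Myc+E2f/Dp (log2 1.10 ± 0.07, adjusted p = 2.79e-07). Max, the partner of Myc, was at 29.8, 28.4 and 30.7 in control and at 32.0, 27.6 and 27.4 in Myc+E2f/Dp, and the repressor Mnt was at 6.69, 7.38 and 6.71 and at 7.45, 8.29 and 7.27. The 2 groups overlapped for Max and for Mnt, and neither was called.

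Of 54 mitotic genes, 43 were tested, 24 were called higher (55.8%, against 7.15% of all tested genes) and none lower. Of these, 28 of the tested and 23 of the called genes passed the filter only through the Myc+E2f/Dp libraries, and the filter favours a rise in such genes. Of the other 15 tested genes the lone call was the condensin gene glu, and their median log2 fold change was 0.38. That share was near the 381 of 7647 called higher among all tested genes that did not need those libraries, whose median was 0.02. The genes glu and CycB3 were named after their values were seen. The summed level of the list was 69.7 to 72.8 scaled TPM in control and 192 to 238 in Myc+E2f/Dp libraries. The chromosomal passenger complex corrects faulty attachment of chromosomes to the spindle. Its kinase aurB rose from 0.0724, 0.0167 and 0.0245 to 9.67, 11.4 and 16, a log2 fold change of 3.66 ± 0.22 (limma, adjusted p = 1.57e-07), and its scaffold Incenp from 0.129, 0.0680 and 0.165 to 10.9, 13.6 and 14.8 (log2 3.64 ± 0.16). Borealin (borr), another subunit, rose from 0.105, 0.0372 and 0.0369 to 4.83, 5.41 and 6.05. Cdk1, the kinase of mitotic entry, rose from 0.202, 0.0186 and 0.0910 to 9.57, 11.2 and 12.6 (log2 3.45 ± 0.32, adjusted p = 4.28e-06). Cyclin A (CycA), a partner of Cdk1, was at 0.141, 0.0858 and 0.212 in control and at 3.04, 2.74 and 3.02 in Myc+E2f/Dp (log2 1.78 ± 0.22). Cyclin B3 (CycB3) was at 0.183, 0.175 and 0.229 in control and at 3.88, 4.76 and 4.90 in Myc+E2f/Dp (log2 2.20 ± 0.13, adjusted p = 1.25e-07). Cyclin B (CycB), a further partner of Cdk1, was at 0.185, 0.0598 and 0.150 in control and at 0.0646, 0.210 and 0.156 in Myc+E2f/Dp libraries, too low to be tested. String (stg), the Cdc25 phosphatase that activates Cdk1, was also below the filter, at 0.419, 0.585 and 0.460 in control and at 0.287, 0.312 and 0.320. In CycB the groups overlapped, and in stg the Myc+E2f/Dp libraries lay below the controls.

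**Figure D3:**
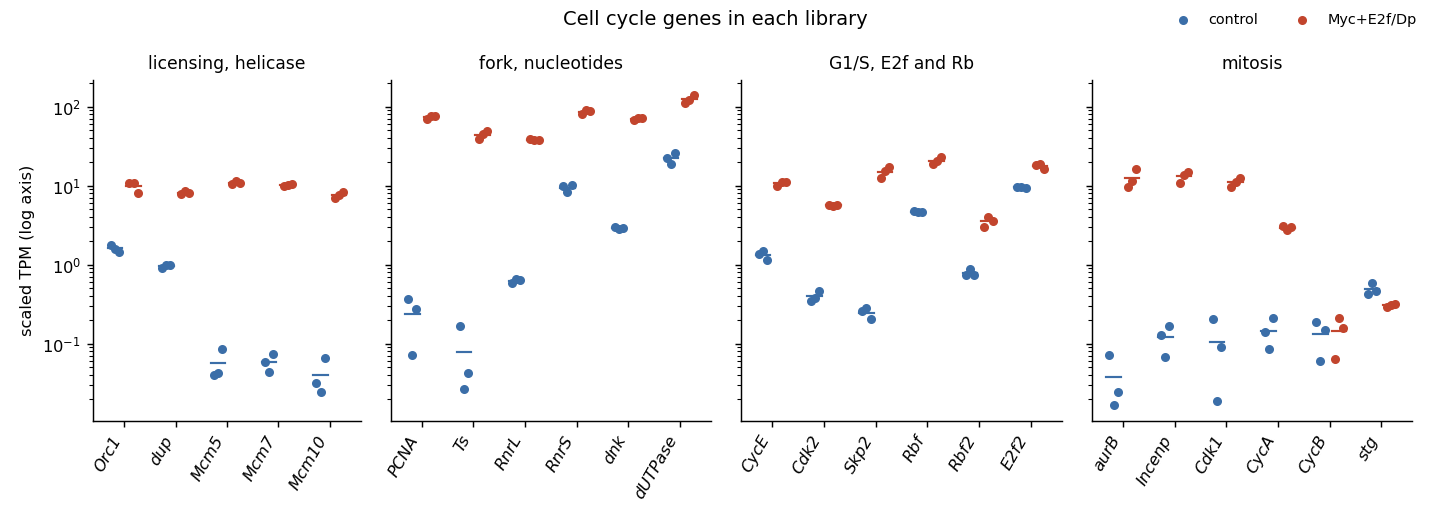
Scaled TPM on a log axis of genes of replication, nucleotide supply, G1/S control and mitosis in each library, 3 control (blue) and 3 Myc+E2f/Dp (red), with a bar at each group mean. Mcm5, PCNA, aurB and Cdk1 lie at 0.368 or less in control and at 9.57 or more in Myc+E2f/Dp libraries, while CycB overlaps and stg is lower.

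Canonical histone mRNAs lack a poly(A) tail and were measured here after poly(A) selection, so that their levels do not stand for their full amount, and copies of the repeated histone genes share reads. Of 111 copies, 20 were tested and 9 were called higher (45%, against 7.15% of all tested genes). All 9 entered the test only through the Myc+E2f/Dp libraries. The His4 copies among them carried near identical values, as at His4:CG33883, with a log2 fold change of 1.42, and they cannot be told apart. The polyadenylated variant His2Av rose from 67.9, 65.5 and 73.8 to 236, 245 and 274, a log2 fold change of 1.85 ± 0.09 (limma, adjusted p = 3.62e-08). His3.3A, the replication-independent histone H3, rose from 77.6, 74.4 and 83.1 to 141, 158 and 181 (log2 1.01 ± 0.10), and its fold change was 0.92 without replicate 3 of Myc+E2f/Dp and 0.98 without replicate 2 of control, under the threshold. The stem-loop binding protein Slbp, which matures canonical histone mRNA, rose from 4.48, 4.39 and 4.84 to 16.2, 18.1 and 21.6 (log2 1.81 ± 0.11).

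Of 44 tested genes of DNA repair and checkpoint, 19 were called higher (43.2%, against 7.15% of all tested genes) and 1 lower (2.27%, against 5.94%). Of these, 13 of the tested and 10 of the called higher genes passed the filter only through the Myc+E2f/Dp libraries. Of the other 31, 9 were called higher, against 381 of 7647 over all tested genes that did not need those libraries. Both subunits of the Ku end-joining complex rose, Irbp (the fly Ku70) from 2.62, 2.72 and 2.87 to 16.1, 15.2 and 19.3 (log2 2.25 ± 0.09, limma adjusted p = 7.72e-09) and Ku80 from 2.09, 2.78 and 2.14 to 11.3, 9.53 and 13.2 (log2 1.88 ± 0.12). PolH, a translesion polymerase, rose from 0.677, 0.968 and 0.897 to 6.45, 6.65 and 7.03. Grapes (grp), the fly Chk1, was 0.88 ± 0.05 higher on the log2 scale, under the fold threshold, and p53 was at 5.24, 5.52 and 5.45 in control and at 7.56, 6.67 and 9.20. FANCI, of the Fanconi pathway, was the lone gene of the list that fell, from 6.91, 7.40 and 6.48 to 2.95, 2.65 and 2.25 (log2 -1.14 ± 0.12), whereas its binding partner Fancd2 rose from 0.170, 0.185 and 0.121 to 2.58, 2.68 and 2.49 (log2 1.63 ± 0.08). FANCI was named after its value was seen.

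Among 17 tested cell death genes, 5 were called higher (29.4%, against 7.15% of all tested genes) and none lower, in glands of which all carried P35. Of the 5, 2 were tested only through the Myc+E2f/Dp libraries. The effector caspase Dcp-1 rose from 0.578, 0.567 and 0.673 to 6.84, 7.21 and 8.36, a log2 fold change of 2.40 ± 0.11 (limma, adjusted p = 2.10e-08). Reaper (rpr), which removes the caspase inhibitor Diap1, was at 0.369, 0.543 and 0.817 in control and at 1.95, 1.66 and 5.65 in Myc+E2f/Dp (log2 1.26 ± 0.28, adjusted p = 0.00207), with replicate 3 the highest, and was not called without that replicate (log2 0.83). The TNF ligand eiger (egr) rose from 0.290, 0.476 and 0.430 to 1.81, 2.20 and 3.10 (log2 1.25 ± 0.15), and Corp, a p53 target that restrains p53, from 0.290, 0.270 and 0.163 to 3.43, 2.37 and 3.21 (log2 1.68 ± 0.19). Irbp18, a bZIP partner of Xrp1, rose from 13.6, 13.7 and 13.3 to 30.1, 30.5 and 43.0 (log2 1.27 ± 0.13). Xrp1 itself was at 51.4, 62.7 and 50.7 in control and at 92.9, 104 and 138 in Myc+E2f/Dp, just short of the fold threshold. The other killer gene hid was at 2.03, 2.48 and 1.73 in control and at 1.98, 2.05 and 3.17, with overlapping groups.

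The growth machinery was called in no member. None of 31 ribosome biogenesis genes, 18 cytoplasmic tRNA synthetases, 83 tested cytoplasmic ribosomal protein genes or 73 mitochondrial ribosomal protein genes was called higher or lower, and the list medians were 0.03, -0.08, -0.45 and 0.01. With TPM as deposited those medians became 0.81, 0.71, 0.37 and 0.77 beside 0.74 for all tested genes, so that the sign of the cytoplasmic ribosomal proteins and of the tRNA synthetases flipped, while relative to all genes the cytoplasmic ribosomal proteins stayed low. As deposited, 9, 1, 1 and 14 genes of the 4 lists were called higher and none lower, against 28.8% of all tested genes called higher. After scaling, 76 of the 83 cytoplasmic ribosomal protein genes had an adjusted p under 0.05 with a negative fold change (limma), each less than the fold threshold in size. Over all tested genes, 2359 of 8128 had such a p with a negative fold change, and 64.9% had one in either direction. Fibrillarin (Fib), the nucleolar RNA methylase, was at 121, 117 and 140 in control and at 148, 130 and 124 in Myc+E2f/Dp. The nucleolar helicase pit, known in flies as a Myc target, was at 29.4, 29.1 and 31.3 and at 30.1, 27.4 and 26. The groups overlapped in both genes. The nucleolar protein genes Nopp140 and modulo (mod) were at 34.5, 34.7 and 36.9 and at 191, 188 and 202 in control, and at 42.9, 41.1 and 37.0 and at 148, 122 and 112 in Myc+E2f/Dp. Neither reached the fold threshold, and the log2 value of mod was -0.61 after scaling and 0.20 with TPM as deposited. Nuclear genes of oxidative phosphorylation, 67 tested, had a median of -0.31 after scaling and of 0.50 with TPM as deposited, and the 13 glycolysis genes had -0.23 and 0.56, with no gene called after scaling in either list and none and 3 called higher as deposited. Lactate dehydrogenase (Ldh) was at 2.30, 2.83 and 2.25 in control and at 3.08, 3.62 and 11.6 in Myc+E2f/Dp. Among 36 tested proteasome genes and 20 tested vacuolar ATPase genes, 1 each was called lower, Rpt3R and VhaAC39-2 (2.78% and 5%, against 5.94% of all tested genes). From TPM as deposited none was called lower, and 11 proteasome and 2 vacuolar ATPase genes were called higher.

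Of 19 tested genes of the JNK pathway and its targets, 5 were called higher (26.3%, against 7.15% of all tested genes) and none lower. Of the 5, 1 passed the filter only through the Myc+E2f/Dp libraries, and 4 of the other 18 were called higher. Puckered (puc), the phosphatase that switches JNK off and a standard readout of it, rose from 3.24, 3.75 and 4.10 to 7.51, 9.42 and 13.0 (log2 1.2 ± 0.17), and the matrix metalloprotease Mmp1 from 1.98, 1.89 and 0.865 to 8.01, 8.46 and 15.8 (log2 2.16 ± 0.29). The transcription factor Ets21C rose from 0.927, 0.327 and 0.293 to 2.54, 2.55 and 4.13, a log2 fold change of 1.43 ± 0.20 (limma, adjusted p = 8.50e-05), and kayak (kay), the fly Fos, from 6.60, 7.26 and 6.68 to 12.9, 16.1 and 20.3 (log2 1.13 ± 0.12, or 0.98 and not called without replicate 3 of Myc+E2f/Dp). The relaxin-like peptide gene Ilp8 was at 5.26, 6.25 and 4.74 in control and at 9.12, 10.5 and 12, under the fold threshold. In the JAK/STAT list, 2 of 10 tested genes were called, both higher (20%, against 7.15% of all tested genes). The cytokine upd3, a ligand of the pathway, rose from 0.560, 0.176 and 0.0866 to 1.87, 1.55 and 5.09 (log2 1.49 ± 0.27), and so did the phosphatase Ptp61F, a brake on the pathway, from 13.0, 14.7 and 14.2 to 29.4, 34.0 and 44.5 (log2 1.29 ± 0.13). The inhibitor Socs36E was at 1.78, 2.19 and 2.05 in control and at 3.58, 3.73 and 7.56, and the receptor gene dome was at 10.5, 10.9 and 9.04 and at 12.6, 15.2 and 16.8, and neither reached the fold threshold.

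The EGF receptor list had 3 of 13 tested genes called higher (23.1%, against 7.15% of all tested genes), all ligands. Spitz (spi), the main ligand, rose from 6.06, 7.98 and 9.30 to 12.6, 17.2 and 23.2 (log2 1.07 ± 0.21), and it was not called without replicate 3 of Myc+E2f/Dp (log2 0.86) or replicate 1 of control (0.92). Keren (Krn) rose from 12.7, 14.0 and 12.4 to 25.5, 31.4 and 34.7 (log2 1.16 ± 0.10, limma adjusted p = 2.27e-06), and gurken (grk), best known from the oocyte, from 0.533, 0.671 and 0.652 to 4.35, 5.21 and 7.39 (log2 2.01 ± 0.14, adjusted p = 7.13e-07). The receptor gene Egfr was at 3.13, 3.52 and 3.03 in control and at 3.14, 4.09 and 4.26, with overlapping groups, and argos (aos), a feedback target of the pathway, was too low to be tested, at 0.0936, 0.0801 and 0.0818 against 0.138, 0.238 and 0.195. The PDGF- and VEGF-related ligand Pvf2 rose from 0.0481, 0.0682 and 0.0921 to 2.41, 2.12 and 8.28 (log2 2.11 ± 0.33, adjusted p = 0.000195) and Pvf3 from 2.78, 3.25 and 2.11 to 5.30, 6.72 and 8.22 (log2 1.06 ± 0.15). Pvf3 was not called without replicate 3 of Myc+E2f/Dp (log2 0.92) or without replicate 3 of control (0.94). Their receptor Pvr was at 9.88, 10.0 and 9.39 in control and at 8.96, 10.1 and 10.8. Pvf1, the remaining ligand of the list, had a log2 value of -0.73 with an adjusted p under 0.05 (limma), under the fold threshold in size. Its Myc+E2f/Dp libraries lay below all controls. Of the 4 tested genes of this list 2 were called higher (50%, against 7.15% of all tested genes), 1 of them tested only through the Myc+E2f/Dp libraries. For both Egfr and Pvr the receptor was not called while some ligands of it were.

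Toll and insulin genes were called in a few members each. The calls of the Toll and IMD list (16.7%) and of the insulin list (25%) were all higher, against 7.15% of all tested genes. Spatzle (spz), the Toll ligand, rose from 0.794, 0.699 and 0.690 to 6.56, 8.26 and 9.84, a log2 fold change of 2.40 ± 0.20 (limma, adjusted p = 2.32e-06), 1 of 2 called among 12 tested Toll and IMD genes. The other, dorsal (dl), the NF-kappaB factor of the Toll pathway, rose from 1.69, 1.59 and 1.90 to 6.29, 7.70 and 9.69 (log2 1.69 ± 0.13). Of 9 tested antimicrobial peptide genes, the lone call was the fall of CecA1, with 8.08, 16.4 and 18.4 in control and 2.45, 7.12 and 10.3 in Myc+E2f/Dp, and there the groups overlapped. Of 12 tested insulin pathway genes, 3 were called higher. The insulin receptor InR rose from 0.679, 0.961 and 1.02 to 3.49, 4.56 and 4.47 (log2 1.45 ± 0.14, adjusted p = 8.16e-06), and Thor, the translation inhibitor 4E-BP, from 141, 152 and 212 to 245, 441 and 672 (log2 1.33 ± 0.39, adjusted p = 0.0119). ImpL2, a secreted insulin antagonist, was at 0.566, 0.4 and 0.220 in control and at 0.943, 1.21 and 5 in Myc+E2f/Dp (log2 1.09 ± 0.33, adjusted p = 0.0138). Replicate 3 was highest in Thor and in ImpL2, and without it, with the tested genes kept, their log2 fold changes were 0.99 and 0.57 and InR was the call left of the 3.

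Of 12 tested inducible heat shock genes, 3 rose (25%, against 7.15% of all tested genes), Hsp23 from 1.18, 0.320 and 1.71 to 7.43, 4.35 and 7.49 (log2 1.87 ± 0.54, limma adjusted p = 0.0102), Hsp22 by 1.58 ± 0.34 and Hsp70Bb by 1.21 ± 0.26 on the log2 scale. Of 25 tested glutathione S-transferases, 2 rose (8%) and 1 fell (4%), shares near those of all tested genes, and 1 rise was left without replicate 3 of Myc+E2f/Dp. GstE1 rose from 9.26, 8.74 and 6.11 to 26.3, 24.2 and 31.0 (log2 1.65 ± 0.15, adjusted p = 3.51e-06), and GstE13 fell from 36.6, 30.5 and 32.1 to 15.4, 12.8 and 10.5 (log2 -1.31 ± 0.12). Among 20 septate junction genes, which seal the epithelium, 2 (10%) were called higher, again near the share of all tested genes. Fas3 rose from 16.7, 19.8 and 17.4 to 35.3, 38.3 and 49.0 (log2 1.13 ± 0.17, adjusted p = 0.000164) and Tsf2 from 11.7, 13.1 and 12.3 to 23.1, 27 and 28.8 (log2 1.03 ± 0.11). Tsf2 was not called without replicate 3 of Myc+E2f/Dp (log2 0.97) or replicate 1 of control (0.99). The septate junction genes cora and dlg1 were at 17.8, 19.1 and 17.6 and at 10.6, 11.6 and 11.4 in control, and at 21.3, 23.1 and 24.7 and at 9.08, 9.76 and 8.61 in Myc+E2f/Dp, and neither was called. None of 11 tested polarity genes was called. Of 14 tested integrin and basement membrane genes, 1 was called higher and 1 lower (7.14% each), near the shares of all tested genes (7.15% and 5.94%). The integrin beta subunit gene Itgbn rose from 14.3, 18.6 and 16.2 to 34.2, 44.0 and 59.2 (log2 1.41 ± 0.18). The other beta subunit gene, mys, was at 15.6, 15.7 and 15.1 in control and at 18.5, 19.9 and 26.7 in Myc+E2f/Dp, with a log2 value of 0.45 ± 0.15. Inflated (if), an integrin alpha subunit found in muscle attachments, fell from 2.67, 3.05 and 3.32 to 0.589, 0.777 and 0.940 (log2 -1.18 ± 0.10, adjusted p = 2.03e-06).

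Seminal fluid genes were 25 of the 483 genes called lower, and 396 of the 483 were in no gene list. Of 47 accessory gland and seminal fluid protein genes, 41 were tested, and the median log2 fold change was -1.05. Of the 41, 25 were called lower (61.0%, against 5.94% of all tested genes) and 1 higher (2.44%, against 7.15%). With TPM as deposited the median was -0.23 and 5 were called lower and 1 higher, against 1.33% and 28.8% of all tested genes. Without replicate 3 of Myc+E2f/Dp, with the tested genes kept, 18 were called lower. The summed level of the list was 177699 to 224629 scaled TPM in control and 84933 to 113748 in Myc+E2f/Dp libraries, without overlap. In pooled glands, fewer secreting cells and less RNA in each of them cannot be told apart.

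Sex peptide (SP), which changes the behaviour of mated females, was at 29548, 22419 and 28814 in control and at 12254, 10485 and 9167 in Myc+E2f/Dp libraries, a log2 fold change of -1.34 ± 0.14 (limma, adjusted p = 9.16e-06). Proteins of its network tether it to sperm. The gene lectin-46Ca went from 3706, 3687 and 3921 to 1170, 1162 and 966 (log2 -1.78 ± 0.12, adjusted p = 4.15e-07), its neighbour lectin-46Cb from 3261, 2988 and 3424 to 1036, 1068 and 856 (log2 -1.71 ± 0.13), and CG17575 from 4264, 3791 and 4270 to 1356, 1408 and 1112 (log2 -1.67 ± 0.14). These 3 are products of secondary cells, and each was also called lower than in Yki*+Dp glands, where 5.52% of tested genes were. Of 10 tested genes of the network, 5 were called lower (50%, against 5.94% of all tested genes), and with TPM as deposited none was. Acp98AB fell from 29074, 19604 and 28733 to 9507, 6912 and 5635 (log2 -1.82 ± 0.20), and Sfp33A4 from 557, 378 and 372 to 109, 84.6 and 51.0 (log2 -2.44 ± 0.26, adjusted p = 1.51e-05). Acp36DE, a glycoprotein needed for sperm storage in the female, fell from 6210, 6141 and 4749 to 1788, 1524 and 1180 (log2 -1.94 ± 0.20). The tested members of the seminal fluid list that were called neither way included the abundant Acp26Aa and Acp26Ab.

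Serpins are inhibitors of serine proteases, and some are transferred with seminal fluid. Of 21 tested, 10 were called lower (47.6%, against 5.94% of all tested genes) and 2 higher (9.52%, near the 7.15% of all tested genes). With TPM as deposited 5 were called lower and 5 higher, against 1.33% and 28.8% of all tested genes. After scaling, 8 of the 21 had a positive fold change. Spn75F fell from 836, 832 and 781 to 148, 152 and 115, a log2 fold change of -2.56 ± 0.60 (limma, adjusted p = 0.00318), and Spn42De from 52.8, 46.1 and 38.3 to 14.7, 10.3 and 6.96 (log2 -2.05 ± 0.22). Spn27A, which restrains the Toll and melanization cascades, rose from 1.5, 1.53 and 1.43 to 5.66, 9.09 and 11.9 (log2 1.94 ± 0.24, adjusted p = 4.37e-05). Of 16 tested odorant-binding protein genes, 7 were called lower (43.8%) and 1 higher (6.25%, again near the share of all tested genes). With TPM as deposited none was called lower and 1 higher. Obp56f fell from 1681, 1671 and 1483 to 845, 604 and 478 (log2 -1.36 ± 0.18), and Obp56i from 211, 173 and 200 to 63.1, 62.2 and 55.8 (log2 -1.67 ± 0.11). Obp56g went the other way: 73.8, 113 and 28.2 in control became 685, 547 and 1755, a log2 fold change of 3.79 ± 0.58 (adjusted p = 0.000182). It was at 1225 on average in Yki*+Dp glands, and the direct contrast of -0.49 ± 0.58 between the 2 genotypes was not called.

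**Figure D4:**
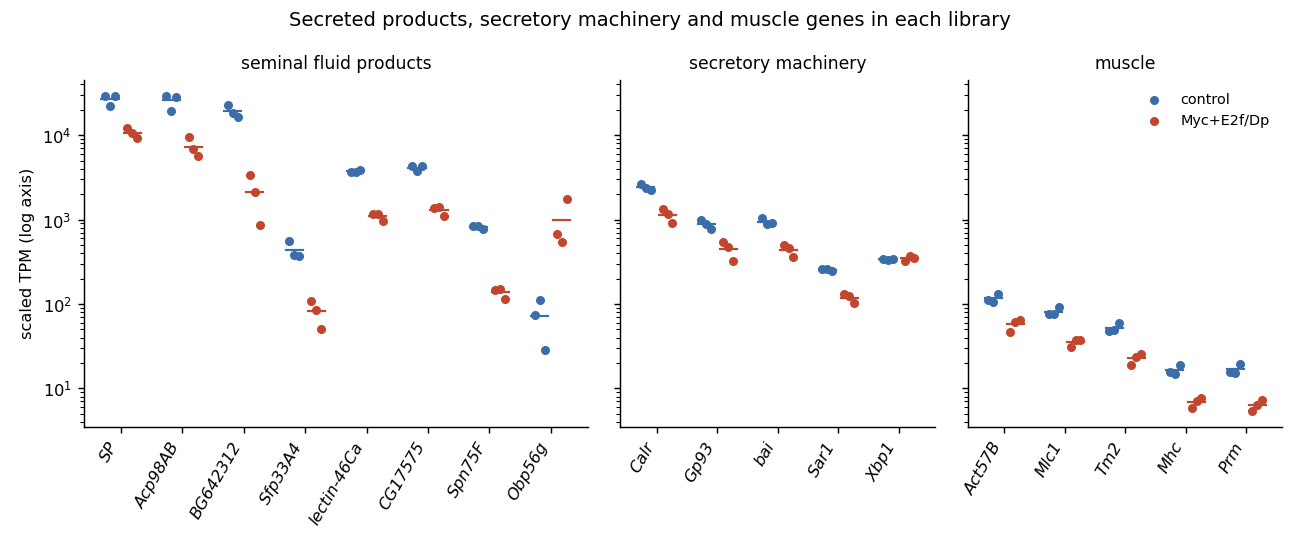
Scaled TPM on a log axis of 8 secreted products, 5 genes of the secretory machinery and 5 muscle genes in each library, 3 control (blue) and 3 Myc+E2f/Dp (red), with a bar at each group mean. Apart from Obp56g, which is higher in Myc+E2f/Dp, and Xbp1, which overlaps, each gene shown is lower in all 3 Myc+E2f/Dp libraries than in any control library.

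The secretory pathway makes and ships these proteins. Of 29 secretory pathway genes, 5 were called lower (17.2%, against 5.94% of all tested genes) and none higher. An adjusted p under 0.05 with a negative fold change (limma) was found in 26, against 2359 of all 8128 tested genes. The list median of -0.64 turned to 0.17 with TPM as deposited, where none was called. Sar1, the GTPase that starts export from the endoplasmic reticulum, fell from 261, 260 and 244 to 132, 124 and 103 (log2 -1.10 ± 0.10, adjusted p = 3.83e-06), and the cargo receptor bai from 1037, 897 and 907 to 499, 458 and 361 (log2 -1.12 ± 0.13). Among 20 genes of endoplasmic reticulum chaperones and the unfolded protein response, 3 were called lower (15%). With TPM as deposited none was lower and 2 were higher, against 28.8% of all tested genes called higher. Calreticulin (Calr) fell from 2615, 2342 and 2268 to 1331, 1181 and 924 (log2 -1.09 ± 0.13, adjusted p = 3.88e-05) and the Hsp90 family chaperone Gp93 from 987, 879 and 770 to 545, 468 and 319 (log2 -1.01 ± 0.19). Without replicate 3 of Myc+E2f/Dp, none of these 8 calls was left, with log2 values of -0.98 for Sar1 and bai, -0.93 for Calr and -0.78 for Gp93, which was not called without replicate 1 of control either (-0.93). The main chaperone Hsc70-3 (BiP) was at 1153, 1008 and 882 in control and at 879, 748 and 479 in Myc+E2f/Dp, a log2 value of -0.57 ± 0.22 that was 0.25 with TPM as deposited. The transcription factor Xbp1, which drives such genes, was at 338, 334 and 342 in control and at 325, 370 and 348 in Myc+E2f/Dp, and CrebA, a regulator of secretory genes, was at 50.9, 53.4 and 50.1 and at 53.4, 57.1 and 40.4. Both regulators overlapped between the groups. Paired (prd), a transcription factor needed for the gland to form, was at 162, 154 and 152 in control and at 151, 182 and 145 in Myc+E2f/Dp, again with overlap, and the ecdysone receptor gene EcR was at 2.28, 2.81 and 2.66 and at 2.78, 3.03 and 2.89, with overlap too. Of the juvenile hormone epoxide hydrolase genes, Jheh1 fell from 52.3, 54.5 and 50.8 to 26.6, 19.0 and 15.0 (log2 -1.37 ± 0.16). Jheh2 fell from 70.6, 65.5 and 71.1 to 39.0, 33.6 and 28.3 (log2 -1.03 ± 0.10, or -0.90 and not called without replicate 3 of Myc+E2f/Dp). Jheh3, also measured, was not called. Jheh1 and Jheh2 were the only calls among 14 tested genes of the list that holds prd and EcR (14.3%, against 5.94% of all tested genes called lower).

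The largest fall of any gene was in the seminal fluid list. Acp54A1 (chromosome 2R, 17133445 to 17133750) was at 73.7, 107 and 179 in control and at 1.98, 3.08 and 1.02 in Myc+E2f/Dp libraries, a log2 fold change of -5.29 ± 0.48 (limma, adjusted p = 4.08e-06), and its Yki*+Dp mean was 3.12. CG34038 (chromosome 2R, 25167659 to 25169855) was at 44.3, 42.9 and 42.9 in control and at 0.299, 0.229 and 0.512 in Myc+E2f/Dp libraries, a log2 fold change of -5.05 ± 0.08 (adjusted p = 9.28e-12). It was at 0.234 on average in Yki*+Dp glands. CG43061 was at 14.0, 21.0 and 20.3 in control and was listed at 0 in 2 of the Myc+E2f/Dp libraries and at 0.131 in the other. The pseudogene CR43087 went from 325, 307 and 318 to 17.5, 18.8 and 12.8 (log2 -4.21 ± 0.13), and the unnamed CG4238 from 71.3, 61.6 and 63.4 to 5.74, 3.4 and 2.74 (log2 -3.79 ± 0.20). BG642312, a gene among the most abundant of the gland, fell from 22552, 18533 and 16582 to 3360, 2124 and 868, a log2 fold change of -3.38 ± 0.39 (adjusted p = 2.64e-05), and it was also lower than in Yki*+Dp glands, where its mean was 14139. The 12 largest falls further held Cyp4e1 (log2 -3.62 ± 0.57), a cytochrome P450, and 5 unnamed genes. These were CG13539 (log2 -3.36), CG5948 (-3.33), CG3288 (-3.07), CG10026 (-3.06) and CG34166 (-3). The groups did not overlap in any of the 12, which was a condition of the choice.

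Among markers of the gland's own cells, 10 products of main cells summed to 90002 to 114128 scaled TPM in control and 37368 to 51586 in Myc+E2f/Dp libraries. Of the 10, 4 were called lower (40%, against 5.94% of all tested genes). The 6 secondary cell markers summed to 10488 to 11634 and 2948 to 3652, with 3 called lower (50%), and nearly all of that sum was lectin-46Ca, lectin-46Cb and CG17575. The other 3 were low in every library and were not called: the homeobox gene dve was at 14.7, 15.4 and 15.0 in control and at 7.70, 9.23 and 8.69 in Myc+E2f/Dp, and the Hox gene Abd-B and the BMP ligand gene dpp were between 0.684 and 4.02.

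Markers of cell types other than the secreting epithelium moved with the groups in part. Of 20 muscle genes, 16 were tested, 12 were called lower (75%, against 5.94% of all tested genes) and none higher. The summed level of the list was 810 to 952 scaled TPM in control and 376 to 470 in Myc+E2f/Dp libraries, without overlap. Myosin heavy chain (Mhc) fell from 15.6, 14.7 and 19.2 to 5.79, 7.15 and 7.79 (log2 -1.15 ± 0.11, limma adjusted p = 6.97e-06), paramyosin (Prm) from 15.8, 15.3 and 19.6 to 5.35, 6.34 and 7.28 (log2 -1.29 ± 0.11), and Mlc1, a myosin light chain, from 76.9, 75.6 and 91.6 to 30.6, 37.3 and 37.9 (log2 -1.18 ± 0.12). With TPM as deposited none of the 16 was called and the list median was -0.35 beside 0.74 for all genes. Against Yki*+Dp glands, where 5.52% of tested genes were called lower, 14 of the 16 were. The share of muscle in the glands was not measured, and the part of this difference in the other results was not tested.

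Ejaculatory duct and bulb markers were called lower in 3 of 6 tested (50%, against 5.94% of all tested genes), or in 1 with TPM as deposited. Their summed level was 446 to 846 in control and 131 to 436 in Myc+E2f/Dp libraries, ranges that did not meet. Esterase 6 (Est-6) went from 47.1, 174 and 111 to 6.55, 19.1 and 32.0 (log2 -2.52 ± 0.61, limma adjusted p = 0.00399), and Dup99B, a peptide related to SP, from 371, 634 and 706 to 114, 233 and 386, with overlap between the groups. Replicates 1 of both groups were the lowest in these 2 genes. The part of duct tissue in the results was not tested. Of 17 germline markers, 4 were tested and 2 called higher (50%, against 7.15% of all tested genes), zuc and spn-E, both of the piRNA pathway. The list summed to 21.9 to 22.7 in control and 28.4 to 29.6 in Myc+E2f/Dp libraries. The helicase gene spn-E rose from 0.114, 0.106 and 0.0867 to 3.82, 3.41 and 3.29 (log2 2.03 ± 0.10, adjusted p = 5.31e-08). The defining germline genes vas and nos were at 0.541 and 0.258 or less in every library of both groups, bam was at 0.0160 or less, and nos and bam were listed at 0 in all 3 control libraries. Spermatocyte markers summed to 7.99 to 92.3 in control and 11.8 to 28.8 in Myc+E2f/Dp, with overlap. Of 12 tested, 1, topi, was called higher (8.33%, near the share of all tested genes). Hemocyte markers summed to 24.5 to 31.0 and 21.7 to 31.4 with none of 8 tested called, neuron markers to 9.10 to 12.9 and 9.96 to 10.6 with none of 4 called, and trachea markers to 0.629 to 1.10 and 0.493 to 0.734. The 4 markers of somatic testis cells summed to 0.409 or less in every library, and none was tested. Fat body markers summed to 2.05 to 4.39 and 9.29 to 11.6, and the lone tested member, the fatty acid synthase FASN1, rose from 1.58, 3.35 and 2.58 to 8.45, 7.59 and 9.79 (log2 1.48 ± 0.22). The yolk protein gene Yp1 and the larval serum protein gene Lsp2, which define fat body, were at 0.199 or less in every library.

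**Figure D5:**
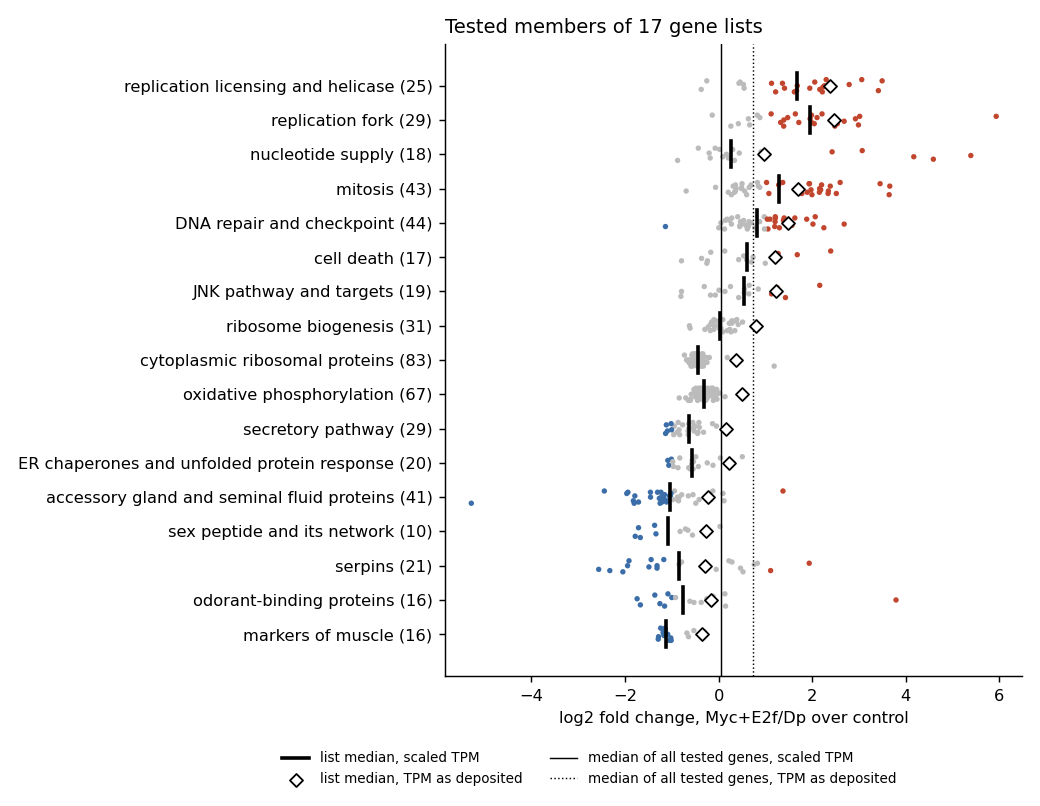
Log2 fold change of Myc+E2f/Dp over control for each tested member of 17 gene lists (the number tested in brackets), red for called higher, blue for called lower and grey for not called, with the list median as a black bar and the list median from TPM as deposited as an open diamond. The thin solid line at 0.05 and the dotted line at 0.74 are the medians of all tested genes after scaling and as deposited, and the replication lists lie right of both lines while the secreted product and muscle lists lie left of both under either treatment.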

How the data were processed

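Poly(A)-selected RNA (TruSeq Stranded mRNA) of pooled accessory glands was sequenced by the authors, who trimmed reads with cutadapt 1.18, quantified transcripts with kallisto against BDGP6 and tested genes with sleuth, per the labels and the methods of the study. The deposited values were TPM per transcript and per gene, and the gene values equalled the sums over transcripts. TPM is relative to all other transcripts of a library, so that a fall of very abundant genes raises all others. Each library was therefore multiplied by its median-of-ratios factor. With R 4.3.3 and limma 3.58.1, log2(scaled TPM + 1) was fitted over all 12 libraries with a mean per group and an intensity trend, for the 8128 genes that reached 1 TPM in no fewer than 3 libraries, with Benjamini-Hochberg adjustment over all of them. Called means an adjusted p under 0.05 together with a log2 difference of 1 or more in size. Coordinates came from an Ensembl annotation of the same BDGP6 assembly. The fit was tested on simulated data. Figures were drawn with Python 3.11.15 and matplotlib 3.10.9.

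Genes named in the text were the driven genes, the 12 largest rises and falls beyond all control libraries, fixed members of 51 gene lists, and genes drawn from up to 6 called members of each list and from the marker lists, of which not all are given. Others are said to be chosen after their values were seen. The comparison, the lists (1316 distinct genes, 986 tested, 3 names not found) and the named members were chosen with earlier results of these data known. Replicate numbers were not used to pair libraries. Alternatives were other scalings, pseudocounts, filters and thresholds, a replicate block, and leaving out each library. Promoter sequences were not analysed here.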

Additional observations from a re-analysis of the deposited data

How the results depend on the processing

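Scaling changed the balance of directions. With TPM as deposited, 2448 genes were called against control, 2340 higher and 108 lower, and against Yki*+Dp glands 839 higher and 233 lower, while scaling by the 75th percentile gave 689 higher and 384 lower (64.2% of calls higher, against 54.6% in the main analysis and 95.6% as deposited). No called gene took the opposite call under any alternative. Of the 114 called genes whose fold change the text gives, 96 were still called with TPM as deposited and 109 with 75th percentile scaling. The 18 that were not all fell in the main analysis, among them SP (log2 -0.52), Calr (-0.27), Mhc (-0.40) and lectin-46Ca (-0.96). The uncalled mod and Hsc70-3 changed sign, to 0.20 and 0.25. Testing against a log2 fold change of 1 with limma treat left 438 genes, 274 higher and 164 lower. A threshold of 0.5 gave 2800 genes, 1455 higher and 1345 lower. The pseudocount changed the count to 1488 (at 0.1) or 1275 (at 0.5), no filter to 1049, a filter of 5 TPM to 828, the 6 libraries alone to 1087 and a fit without trend to 1063.

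Leaving out 1 library gave 352 to 610 genes called higher. The lowest value, without replicate 3 of Myc+E2f/Dp, came in part from fewer genes tested, and with the tested genes kept it was 489 (this alternative was added after seeing the data). The calls of replication, mitotic, DNA repair and histone genes near 0 in control depend on the Myc+E2f/Dp libraries for passing the filter.

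Deviations from the group means correlated at 0.51, -0.16 and 0.12 for replicate numbers 1, 2 and 3. Replicate 1 of Myc+E2f/Dp correlated best with its own number, and replicates 2 and 3 with another number. With 3 libraries in a group such deviations are tied to each other, so that these values cannot tell whether the numbers pair libraries. A fit with the replicate block called 1073 genes, 583 higher and 490 lower. TPM carries no depth, so that low values have an unknown counting error.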

Other observations

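The following genes were chosen after their values were seen, apart from the cytochrome P450 list. Among 85 cytochrome P450 genes, 41 were tested, and 9 were called lower (22.0%, against 5.94% of all tested genes). The 3 called higher (7.32%) were near the share of all tested genes (7.15%). The median log2 fold change of -0.22 became 0.41 with TPM as deposited. Cyp4e1 was at 22.5, 23.8 and 20.9 scaled TPM in the control libraries and at 1.78, 1.29 and 0.0928 in the Myc+E2f/Dp libraries (log2 -3.62 ± 0.57, limma adjusted p = 0.000225), and its neighbour Cyp4e2, on chromosome 2R, went from 46.4, 52.5 and 56.8 to 12.9, 12 and 8.7 (log2 -2.13 ± 0.15). Cyp6d2 went the other way, from 3.19, 3.23 and 3.75 to 41.9, 34.7 and 38.4 (log2 3.16 ± 0.11, adjusted p = 1.77e-09), and it was also called higher than in Yki*+Dp glands. The groups did not overlap in any of these 3 genes.

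Several chromatin genes outside the lists rose. HmgD, an HMG-box protein that is abundant in early embryonic chromatin, was at 14.8, 19.3 and 23.8 in control and at 244, 232 and 228 in Myc+E2f/Dp libraries (log2 3.56 ± 0.19, limma adjusted p = 7.05e-08), with a Yki*+Dp mean of 31.9. Df31, a chromatin decondensation factor, went from 4.32, 4.54 and 5.44 to 54.6, 51.6 and 58.4 (log2 3.28 ± 0.10). Rif1, which restrains replication in underreplicated heterochromatin of fly polyploid cells, went from 0.216, 0.228 and 0.232 to 10.7, 13.7 and 13.6 (log2 3.47 ± 0.09, adjusted p = 4.98e-10). Both secreted ferritin subunits, whose genes lie side by side on chromosome 3R, rose to a similar degree: Fer1HCH from 56.4, 62.2 and 61.3 to 129, 147 and 161 (log2 1.26 ± 0.11) and Fer2LCH from 109, 121 and 114 to 277, 321 and 366 (log2 1.47 ± 0.11).

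With TPM as deposited, 67 genes were under 0.1 in every control library and at 1 or more in every Myc+E2f/Dp library, and no gene showed the reverse. They included replication and mitotic genes such as Mcm5, Claspin, aurB and cid, the germline genes spn-E, topi and Phf7, and the selenoprotein gene BthD, which rose to 11.3, 10.9 and 11.9 scaled TPM from 0.104 or less (log2 3.56 ± 0.12). By chromosome, the share of tested genes called lower was 2.70% on the X (33 of 1222) and 6.03 to 6.74% on the arms 2L, 2R, 3L and 3R, and the share called higher was 6.55% on the X and 6.45 to 8.28% on those arms. Among tested genes known only by a CG or CR number, 181 of 2977 were called higher and 258 lower, against 400 and 225 of 5151 named genes.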
